A study of Mus musculus with 4 samples.

Results

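Genes of cartilage and bone differentiation were followed in MEFs (mouse embryonic fibroblasts, cultured directly from embryos) with and without FAN and with and without tumour necrosis factor (TNF). The list holds 10 genes, Sox9, Acan, Comp, Hapln1, Matn2, Runx2, Sp7, Alpl, Spp1 and Ibsp, and a member was measured wherever a probe set was annotated to that 1 gene symbol. This gave 8 genes with 15 probe sets, out of 18194 genes and 45101 probe sets on the array; Runx2 and Spp1 are not analysed here. The conditions, all of C57BL/6 MEFs and each on 1 Affymetrix mouse array, were FAN -/- cells with TNF, FAN -/- cells untreated, FAN +/+ cells with TNF and FAN +/+ cells untreated. All cells were without serum for 24 h; for the TNF arrays the last 16 h were in 50 ng/ml TNF, after 8 h without it. Nsmaf encodes FAN, an adaptor of a TNF receptor; the sources used here do not say which part of Nsmaf is deleted.

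Cartilage and bone arise from common mesenchymal precursors. In chondrocytes the transcription factor SOX9, with SOX5 and SOX6, switches on collagen II and the aggregating proteoglycan aggrecan (Acan), which link protein (Hapln1) fastens to hyaluronan, while COMP and matrilins join collagen fibrils to other parts of the matrix. In osteoblasts RUNX2 and then SP7 (osterix) lead to alkaline phosphatase (Alpl) and to mineral-binding proteins such as bone sialoprotein (Ibsp). Fibroblasts of embryos are a mixed mesenchymal culture, and some of these genes, Comp and Matn2 among them, are also known from tendon, skin and other connective tissue.

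Titles and source names set the groups; the genotype entry of 2 samples goes against these, calling the TNF-treated FAN +/+ sample a knockout and the untreated FAN -/- sample a wild type. The targeted gene Nsmaf went with the titles, at log2 values of 7.48 with TNF and 7.91 untreated in FAN -/- cells, against 8.55 and 8.95 in FAN +/+ cells. Array medians lay between 6.21 and 6.30 log2. A value was treated as low when it was under a floor at the 50th percentile of all values (6.27 log2), and before any difference was taken lower values were raised to the floor. With 1 array a condition, a difference between 2 arrays has neither a replicate check nor a p-value, and precision is limited by how few arrays there are; such differences were called at 2-fold and are given as "higher" or "lower". "Rose" and "fell" refer to a limma fit with additive terms for TNF and genotype, with 2 arrays a level and 1 residual degree of freedom.

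In cells without FAN, 2 matrix genes of the list, neither of them confined to cartilage, were far lower, with and without TNF. Comp, which encodes cartilage oligomeric matrix protein, was 9.21-fold lower with TNF and 13.8-fold lower untreated. Matn2, which encodes the adaptor protein matrilin-2, was 4.27-fold lower with TNF and 2.98-fold lower untreated. The bone genes Sp7 and Alpl differed by less than 2-fold in every comparison, and Acan and Ibsp lay under the floor on all 4 arrays. With TNF, Comp was 2.62-fold lower in FAN +/+ cells, and no other member reached 2-fold in either genotype.

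**Figure D1:**
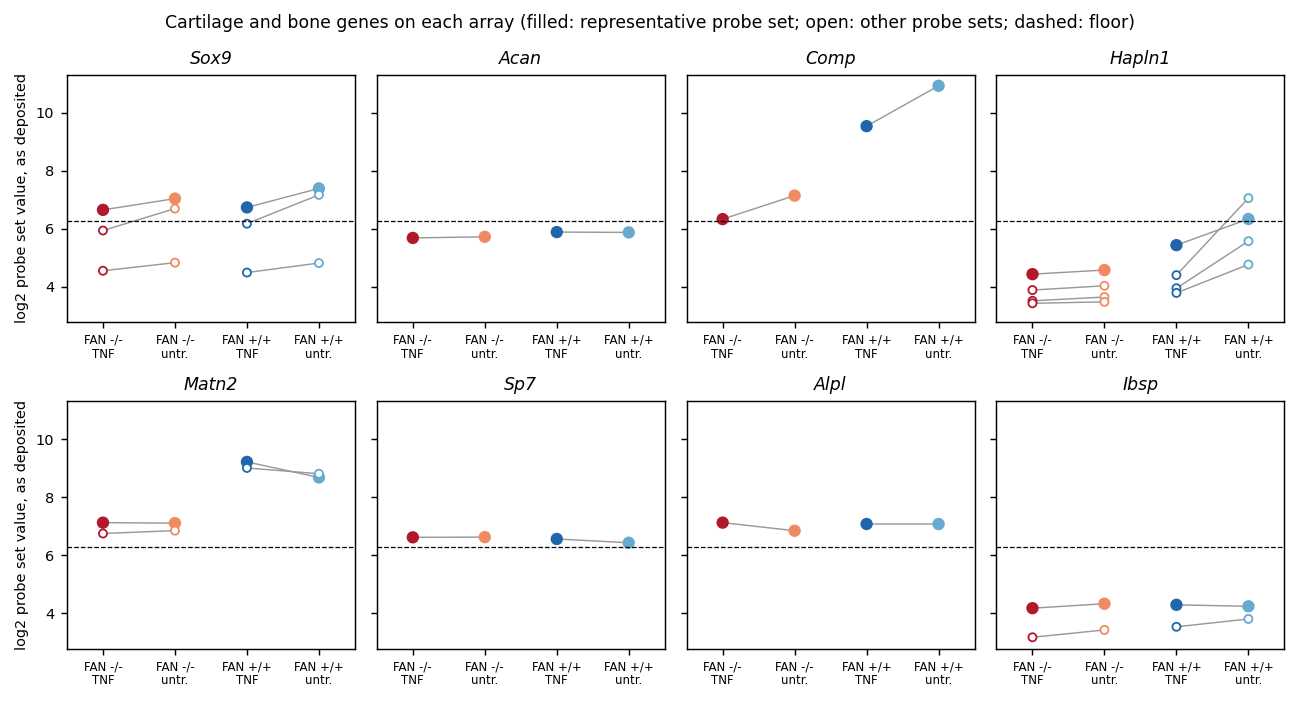
Log2 probe set values as deposited (vertical axis) of the 8 measured genes on the 4 arrays, with FAN -/- arrays in red tones and FAN +/+ arrays in blue tones, TNF left of untreated. Filled points are the probe set of highest mean, open points the other probe sets, the dashed line is the floor of 6.27; Comp and Matn2 stand lower on both FAN -/- arrays, and all 4 Hapln1 probe sets are highest on the untreated FAN +/+ array.

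Sox9, the master factor of chondrocyte fate, had log2 values of 6.65 with TNF and 7.04 untreated in FAN -/- cells, and of 6.74 with TNF and 7.39 untreated in FAN +/+ cells. It was thus lower on the TNF array of each genotype, by -0.39 log2 in FAN -/- and -0.65 log2 in FAN +/+ cells. A second probe set had 5.94 and 6.70 in FAN -/- cells and 6.18 and 7.17 in FAN +/+ cells, in the same order of arrays, and was also lower with TNF in both. The remaining probe set lay under the floor throughout. The additive limma estimate for TNF was -0.52 ± 0.12 log2 (SE, limma adjusted p = 0.117), which did not pass, and that for genotype was -0.22 ± 0.12 (SE, limma adjusted p = 0.33).

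Comp had log2 values of 6.33 with TNF and 7.14 untreated in FAN -/- cells, against 9.54 with TNF and 10.93 untreated in FAN +/+ cells. In each treatment the FAN -/- value was the lower one, and the lowest value of all was just above the floor. Within each genotype the TNF array was the lower one, by -0.81 log2 in FAN -/- and -1.39 log2 in FAN +/+ cells. Comp fell with loss of FAN by -3.49 ± 0.18 log2 (SE, limma adjusted p = 0.0070). The TNF estimate of -1.10 ± 0.18 log2 did not pass (SE, limma adjusted p = 0.062), and moved to an adjusted p of 0.0059 with arrays centred on their medians, 0.046 after quantile normalization and 0.048 over the genes kept when probe sets were averaged, against 0.921 without a genotype term. In these bulk RNA samples, fewer cells that make a transcript and less of it per cell cannot be told apart.

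Matn2 had log2 values of 7.12 with TNF and 7.10 untreated in FAN -/- cells, against 9.21 with TNF and 8.68 untreated in FAN +/+ cells. Its second probe set had 6.75 and 6.84 in FAN -/- cells, against 9.00 and 8.80 in FAN +/+ cells. On both probe sets the FAN -/- array lay below the FAN +/+ array in each treatment. Matn2 fell with loss of FAN by -1.83 ± 0.17 log2 (SE, limma adjusted p = 0.015), while the TNF estimate of 0.28 ± 0.17 did not pass (SE, limma adjusted p = 0.441). Unlike that of Comp, its value was not lower on the TNF array of FAN +/+ cells, where it was 0.53 log2 higher by the first and 0.20 by the second probe set.

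Without a TNF term in the model neither genotype result passed (limma adjusted p = 0.158 for Comp and 0.112 for Matn2), and 10 genes in all did. Whether both arrays of a genotype came from separate cell preparations is not in the labels. The 1 residual degree of freedom of the additive fit holds the gap between the TNF responses of both genotypes, not a spread of replicates. A TNF response that depends on FAN is therefore counted as error in its p-values. Such a response cannot be told apart there from spread between arrays, which may be technical. Without a TNF term, any TNF effect is counted as error as well.

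Hapln1, the link protein gene, was above the floor on the untreated FAN +/+ array alone. Its first probe set had log2 values of 4.44 with TNF and 4.58 untreated in FAN -/- cells, and of 5.44 with TNF and 6.34 untreated in FAN +/+ cells. A second, which reaches further above the floor, had 3.89 and 4.04 in FAN -/- cells and 4.40 and 7.06 in FAN +/+ cells. The other two probe sets ran from 3.43 to 3.65 in FAN -/- cells and from 3.79 to 5.57 in FAN +/+ cells, and all 4 were highest on the untreated FAN +/+ array and lowest on the FAN -/- array with TNF. Above the floor on 1 array, Hapln1 did not meet the limma filter of 2 arrays. It was fitted in 2 alternatives and did not pass for genotype in either, at -0.77 ± 0.23 log2 with a floor at the 30th percentile (SE, limma adjusted p = 0.169) and -0.97 ± 0.16 with no floor and a pseudocount of 16 (SE, limma adjusted p = 0.072). On the first probe set the floor left a difference between untreated genotypes of -0.07 log2, which is a bound, and it was -1.22 with the lower floor and -1.28 with none.

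Acan, the gene of aggrecan, which binds hyaluronan beside link protein, lay under the floor on every array, with log2 values of 5.69 with TNF and 5.72 untreated in FAN -/- cells and 5.89 and 5.88 in FAN +/+ cells. These 4 values spanned 0.20 log2. The promoters of this pair are shown because their products work as 1 complex while only Hapln1 rose above the floor, and that of Alpl because its level hardly moved. RefSeq (GRCm38.p6) gave a window from 250 bases before to 50 after a transcription start for 4 of the 8 measured genes, at chr13:89540386-89540685 on the plus strand for Hapln1, chr7:79052976-79053275 on the plus strand for Acan and chr4:137796335-137796634 on the minus strand for the first listed Alpl start. Capitals mark matches, on either strand, to 4 searched motifs, which were ACAATG for SOX factors, TGTGGT for RUNX factors, GGNNTTTCC for NF-kB and TATAAA for a TATA box.

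Hapln1: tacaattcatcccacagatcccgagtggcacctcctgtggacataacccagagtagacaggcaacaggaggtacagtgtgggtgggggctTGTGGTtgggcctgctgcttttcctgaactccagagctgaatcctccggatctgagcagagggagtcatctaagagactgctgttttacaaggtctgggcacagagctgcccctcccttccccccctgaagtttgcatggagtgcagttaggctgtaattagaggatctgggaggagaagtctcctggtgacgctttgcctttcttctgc
Acan: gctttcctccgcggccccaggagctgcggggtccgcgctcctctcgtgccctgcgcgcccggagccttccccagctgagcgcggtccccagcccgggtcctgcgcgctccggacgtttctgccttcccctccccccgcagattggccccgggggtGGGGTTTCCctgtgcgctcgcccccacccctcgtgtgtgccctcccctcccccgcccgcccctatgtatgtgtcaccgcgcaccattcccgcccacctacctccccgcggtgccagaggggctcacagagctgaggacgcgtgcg
Alpl: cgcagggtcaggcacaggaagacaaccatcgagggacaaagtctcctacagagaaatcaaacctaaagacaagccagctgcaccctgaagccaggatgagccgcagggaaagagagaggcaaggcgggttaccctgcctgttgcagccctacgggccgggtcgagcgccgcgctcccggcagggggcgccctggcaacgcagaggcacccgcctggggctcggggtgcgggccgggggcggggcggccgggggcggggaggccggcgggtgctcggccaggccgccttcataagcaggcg

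The Hapln1 window held 1 match, to the RUNX motif 160 bases before the start. The Acan window held 1, to the NF-kB motif 95 bases before it, and the Alpl window 0. In the windows not printed, that of the second listed Alpl start held a TATA match 192 bases before the start, and that of Ibsp a SOX match 186 and a TATA match 28 bases before it. Of all 32851 promoter windows, 16.8% held the RUNX motif, 5.82% the NF-kB motif, 12.6% the SOX motif and 13.6% the TATA motif. No 2 matches overlapped in these windows, and a match is a string of letters, not a shown binding site.

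Of the osteoblast genes, Sp7, which encodes the zinc finger factor osterix, had log2 values of 6.61 with TNF and 6.62 untreated in FAN -/- cells and 6.56 and 6.43 in FAN +/+ cells. Alpl, the tissue-nonspecific alkaline phosphatase that frees phosphate for mineral, had 7.12 and 6.84 in FAN -/- cells and 7.07 and 7.07 in FAN +/+ cells. Both stood close above the floor and spanned 0.19 and 0.28 log2 over the 4 arrays. Their limma estimates for genotype were 0.13 ± 0.09 log2 for Sp7 (SE, limma adjusted p = 0.476) and -0.09 ± 0.12 for Alpl (SE, limma adjusted p = 0.677), and for TNF 0.06 ± 0.09 and 0.14 ± 0.12, which did not pass either (limma adjusted p = 0.774 and 0.579). Ibsp, a matrix protein of mineralizing bone, lay under the floor on every array on both of its probe sets, at 4.17 and 4.32 in FAN -/- cells and 4.29 and 4.24 in FAN +/+ cells on the first.

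**Figure D2:**
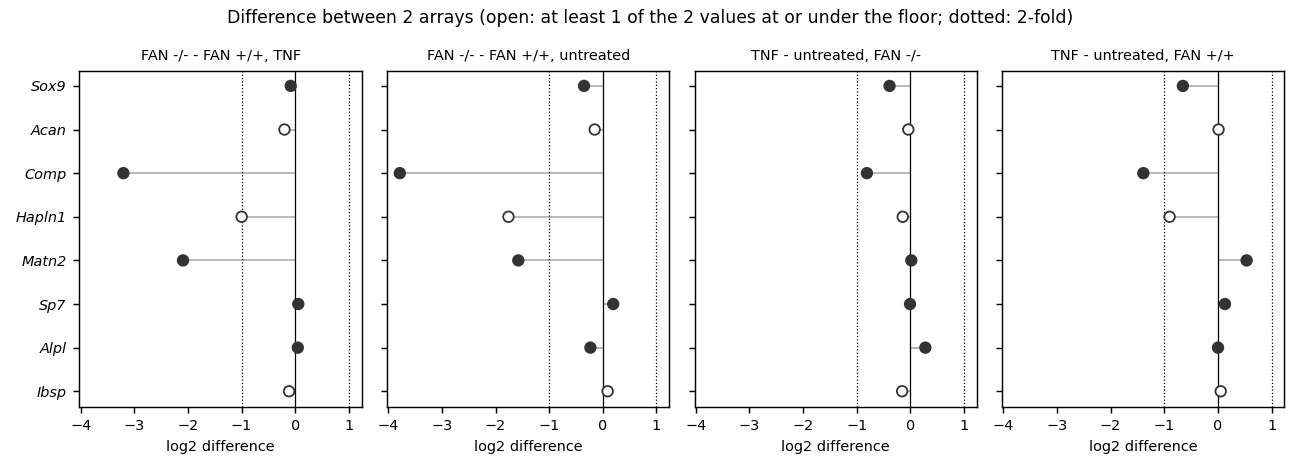
Log2 difference (horizontal axis, as deposited) of each gene in the 2 genotype and the 2 TNF comparisons, 1 array minus 1 array. Filled points have both values above the floor, open points do not, and dotted lines mark 2-fold; Comp reaches -3.78 and Matn2 -2.09 between genotypes, while Sp7 and Alpl stay close to 0.

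Counted together, 6 of the 8 measured genes were above the floor on at least 1 array and 5 on at least 2. Of all 18194 genes, 12225 and 11818 were, so the list was much like the array in this. Between genotypes, 2 of the 6 were at least 2-fold lower with TNF, where 2.64% of all 12225 genes above the floor were. Untreated, it was again 2 of the 6, where 2.89% of all were. The median log2 difference of the 6 was -0.04 with TNF, beside 0.01 over all genes above the floor, and -0.29 untreated, beside -0.03. With TNF, 0 of the 6 were at least 2-fold lower in FAN -/- cells (1.07% of all genes) and 1 of the 6, Comp, in FAN +/+ cells (1.92%). In the additive limma fit, 2 of 5 members fell with loss of FAN, where 3.67% of 11818 genes fell. With TNF 0 of 5 passed, where 2.72% of all genes passed in either direction. An unadjusted limma p under 0.05 was found for 2 of the 5, Comp and Sox9, and for 2219 of all 11818 genes. The genes and lists were chosen with earlier results of these data known. Counts set beside the share of all genes, here and below, are therefore a description and not a test of a list.

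The TNF response of each gene was set between genotypes as the log2 response in FAN -/- cells minus that in FAN +/+ cells. This difference was 0.58 for Comp, 0.27 for Sox9, 0.28 for Alpl, -0.14 for Sp7 and -0.52 for Matn2. None reached 2-fold, a size that 1.61% of all genes had in either direction. No degree of freedom is left to test it. The Comp value also rests on a FAN -/- TNF value that was 0.07 log2 above the floor.

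Among 22 other chondrogenic genes, 13 were in the limma fit, and 6 of them fell and 1 rose with loss of FAN, where 3.67% of all genes fell and 2.94% rose. Prg4, which encodes the joint lubricant lubricin, had log2 values of 6.98 with TNF and 7.09 untreated in FAN -/- cells, against 10.13 and 10.26 in FAN +/+ cells, and fell by -3.16 ± 0.11 log2 (SE, limma adjusted p = 0.0031). Col2a1, the collagen II gene and a direct SOX9 target, had 8.15 and 8.36 in FAN -/- cells, against 9.53 and 9.93 in FAN +/+ cells, and fell by -1.47 ± 0.12. Trps1, a zinc finger factor of chondrocyte maturation, fell by -1.44 ± 0.12, and all 4 of its probe sets were more than 2-fold lower in FAN -/- cells in both treatments. Col10a1, the hypertrophic collagen gene, fell by -0.91 ± 0.14 (SE, limma adjusted p = 0.038). Sox5 and Sox6, the partners of SOX9, fell by -0.76 ± 0.13 and -0.66 ± 0.11 (SE, limma adjusted p = 0.0498 and 0.043). The p-values of these last genes lay close to the threshold of 0.05. Matn4, another matrilin gene, rose by 1.23 ± 0.12, in the direction opposite to that of Matn2. The median genotype estimate of the 13 was -0.02 log2, beside -0.01 over all genes fitted, so that the medians lay close together.

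**Figure D3:**
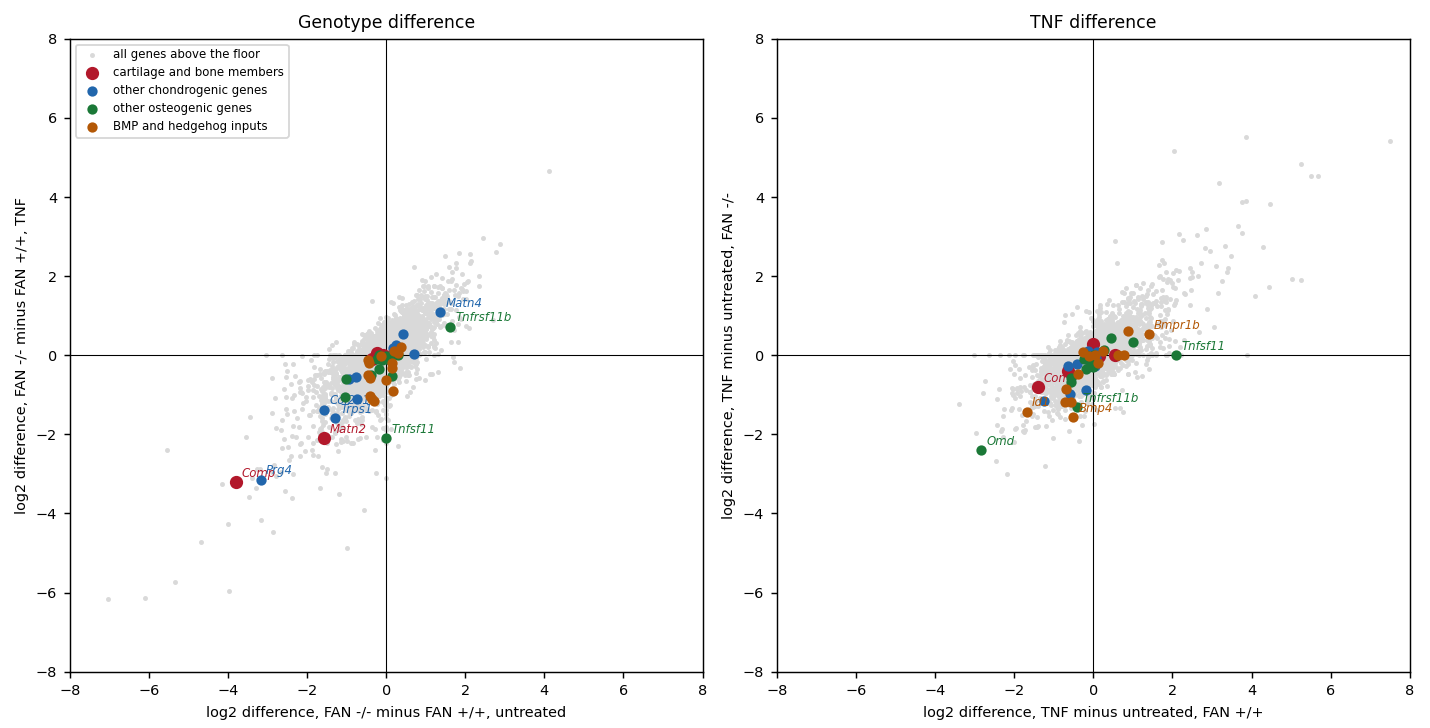
Log2 differences of all 12225 genes above the floor (grey) with the skeletal genes in colour. Left, FAN -/- minus FAN +/+ untreated (horizontal) and with TNF (vertical); right, TNF minus untreated in FAN +/+ (horizontal) and FAN -/- cells (vertical). Comp, Prg4, Matn2, Col2a1 and Trps1 lie low on both axes of the left plot, and Omd and Id1 on both axes of the right plot.

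With TNF, 1 of these 13 chondrogenic genes fell and 0 rose, where 1.14% of all genes fell and 1.57% rose (135 and 186 genes, but 520 and 405 with arrays centred on their medians). This was Col11a1, a chain of the fibrillar collagen XI, at -1.20 ± 0.09 log2 (SE, limma adjusted p = 0.016). Its values were 10.50 with TNF against 11.64 untreated in FAN -/- cells, and 9.96 against 11.22 in FAN +/+ cells. A second probe set was also lower with TNF in both genotypes, by -1.10 and -0.98 log2.

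Of 25 other osteogenic genes 19 were measured and 12 were in the limma fit. Of these 1 fell with TNF and 1 with loss of FAN, where 1.14% and 3.67% of all genes fell. Omd, the gene of osteomodulin, a small leucine-rich proteoglycan of bone, had 6.87 with TNF and 9.28 untreated in FAN -/- cells and 7.47 and 10.30 in FAN +/+ cells, and fell with TNF by -2.62 ± 0.15 log2 (SE, limma adjusted p = 0.011). Twist1, a basic helix-loop-helix factor that restrains RUNX2, fell with loss of FAN by -1.04 ± 0.11 (SE, limma adjusted p = 0.018), with differences of -1.05 log2 with TNF and -1.04 log2 untreated. The pair that controls osteoclast formation was uneven over the arrays. Tnfsf11, which encodes the osteoclast factor RANKL, had 3.98 with TNF and 3.88 untreated in FAN -/- cells, and 8.36 and 4.83 in FAN +/+ cells, so that it was above the floor on the FAN +/+ TNF array alone, at least 4.28-fold above the others. Tnfrsf11b, whose product osteoprotegerin is a decoy for RANKL, had 7.55 and 8.86 in FAN -/- cells and 6.83 and 7.24 in FAN +/+ cells. Neither passed the limma test, which Tnfsf11 did not enter.

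**Figure D4:**
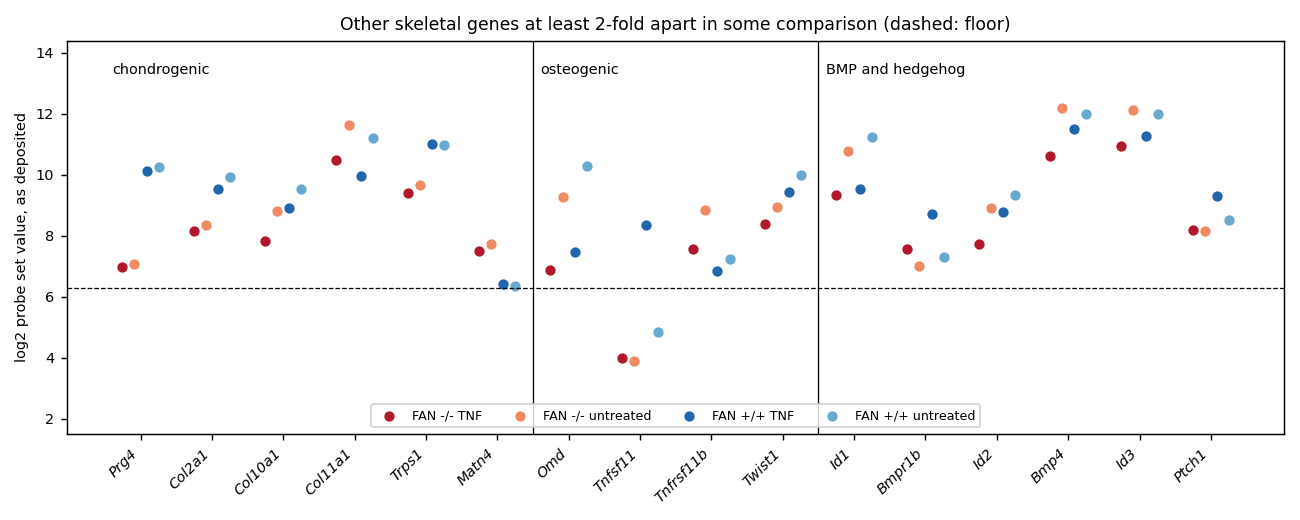
Log2 values as deposited (vertical axis) of the 16 other skeletal genes named by size of change, 1 point an array, with the floor of 6.27 dashed. Prg4, Col2a1 and Trps1 have the FAN -/- point lower in both treatments, while Matn4 has it higher. Omd and Id1 have the TNF point lower in both genotypes.

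Of 17 genes of BMP and hedgehog signalling, which drive both lineages, 14 were in the limma fit. Of these 3 fell with TNF, where 1.14% of all genes fell. For genotype 0 passed and 7 had an unadjusted limma p under 0.05, as had 2896 of all 11818 genes. Id1 and Id3, immediate targets of BMP signals, fell with TNF by -1.56 ± 0.11 and -0.96 ± 0.14 log2 (SE, limma adjusted p = 0.014 and 0.0498), and Smad6, an inhibitory SMAD that BMP signals also induce, by -0.78 ± 0.10 (adjusted p = 0.039). Bmp4, a BMP ligand, had 10.61 with TNF and 12.18 untreated in FAN -/- cells and 11.50 and 12.00 in FAN +/+ cells. Bmpr1b, a BMP receptor gene of cartilage condensations, had 7.55 and 7.02 in FAN -/- cells and 8.72 and 7.32 in FAN +/+ cells, highest on the FAN +/+ TNF array. Id2 had 7.72 and 8.91 in FAN -/- cells and 8.77 and 9.32 in FAN +/+ cells, and Ptch1, a hedgehog receptor and target gene, 8.18 and 8.16 against 9.29 and 8.53 on its first probe set. A second Ptch1 probe set had 6.73 and 6.46 in FAN -/- cells and 6.72 and 6.25 in FAN +/+ cells, the last of these under the floor, and so was not lower in FAN -/- cells in either treatment. Bmp4, Bmpr1b, Id2 and Ptch1 did not pass the limma test for either factor.

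Patterns like those of Comp and Matn2 were sought among 11817 other genes, as the root mean square difference of the 4 array values after each gene's mean was taken off. These 2 members were above the floor on at least 2 arrays and spanned at least 1 log2 with values raised to the floor. Nearest to Comp were Hoxd13 at 0.27 log2, with values of 6.59 and 6.77 in FAN -/- cells and 9.85 and 10.92 in FAN +/+ cells, then Plce1 at 0.33 and Abi3bp at 0.38. The FAN -/- TNF value of Plce1, 6.11, was under the floor. Nearest to Matn2 were C1ra at 0.08 and Pdgfra at 0.12. Barx1 followed at 0.15, but its FAN -/- values of 5.77 and 5.32 were under the floor, and its distance was 0.54 when they were not raised to it. Likeness over 4 arrays is a description, since many genes share so short a pattern.

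Marker genes of cartilage and bone cells were in part under the floor. So were genes at large, of which 12225 of 18194 were above it on at least 1 array. Of 8 chondrocyte markers 4 were above the floor on any array, their summed linear level was 679 and 760 in FAN -/- cells against 1140 and 1425 in FAN +/+ cells (TNF, then untreated), and Acan, Matn1, Matn3 and Cnmd were under the floor on all 4. Of the 4 above it, Col2a1 fell, as given, while Sox9, Col9a1 and Col11a2 did not pass for genotype, with estimates of -0.22, -0.02 and 0.18 log2 (limma adjusted p = 0.33, 0.915 and 0.286). Of 8 osteoblast markers 5 were measured and 3 were above the floor on any array, with sums of 292 and 275 against 292 and 357, and Ibsp and Phex were under it throughout. Of the markers above it, Dmp1, an osteocyte matrix gene, had log2 values of 3.36 and 3.53 in FAN -/- cells and 3.87 and 6.45 in FAN +/+ cells, so that like Hapln1 it was above the floor on the untreated FAN +/+ array alone. For Dmp1 this held on 1 of 3 probe sets, and the others lay under the floor on all 4 arrays. All 8 fibroblast markers were above the floor on all 4 arrays, with sums of 81841 and 93925 in FAN -/- cells against 91511 and 99073 in FAN +/+ cells. Among them Pdgfra, a growth factor receptor gene, had 9.62 and 9.46 in FAN -/- cells against 11.43 and 10.89 in FAN +/+ cells, and fell by -1.62 ± 0.13 log2 with loss of FAN (SE, limma adjusted p = 0.011). Thy1, a surface glycoprotein gene, had 9.33 and 10.27 in FAN -/- cells against 8.95 and 9.65 in FAN +/+ cells, so that it was higher without FAN in each treatment. Tendon markers, of which 4 of 4 were above the floor on some array, summed to 1838 and 3392 in FAN -/- cells against 4610 and 5929 in FAN +/+ cells, but their genes parted. Tnmd had 9.18 and 9.94 against 7.46 and 8.06, and Fmod 10.09 and 11.12 against 12.06 and 12.42. Macrophage and leukocyte markers, 4 of 8 above the floor on any array and Ptprc on none, summed to 1093 and 1581 in FAN -/- cells against 1210 and 772 in FAN +/+ cells. Adipocyte markers, 3 of 5 measured above the floor on any array and Adipoq on none, summed to 215 and 264 against 506 and 663. Among them Fabp4 had log2 values of 6.52 and 5.45 in FAN -/- cells against 8.56 and 8.66 in FAN +/+ cells. Lpl, with 5.65 and 7.19 against 5.82 and 7.15, had no such gap. Other lists had higher sums in FAN -/- cells. Osteoclast markers, 3 of 6 above the floor on any array and Calcr, Ocstamp and Oscar on none, summed to 1996 and 2030 in FAN -/- cells against 1183 and 1314 in FAN +/+ cells. Ctsk, the cathepsin K gene, was 2.28-fold higher with TNF and 1.84-fold higher untreated. Acp5, on the same list, went the other way, at log2 values of 6.06 and 6.06, under the floor, in FAN -/- cells against 6.45 and 6.49 in FAN +/+ cells. Neural markers, 4 of 4 above the floor on some array, summed to 1554 and 1151 in FAN -/- cells against 774 and 793 in FAN +/+ cells. Nes, which encodes the intermediate filament protein nestin, was 2.30-fold higher with TNF and 1.90-fold higher untreated. Sox2, on the same list, went the other way, with log2 values of 3.71 and 3.58 in FAN -/- cells against 5.81 and 7.31 in FAN +/+ cells. It was above the floor on the untreated FAN +/+ array alone. Skeletal muscle markers, 3 of 6 above the floor on any array and Myod1 and Myog on none, summed to 580 and 557 against 456 and 441. Endothelial sums lay between 358 and 410 and epithelial sums between 713 and 791 over the 4 arrays, with no gap between genotypes. The part of such differences between cultures in the values of Comp and Matn2 was not tested.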

How the data were processed

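Total RNA was labelled and hybridised to 1 Affymetrix mouse array per condition. The table deposited by the authors holds values of 2.79 to 14.40 with array medians of 6.21 to 6.30, which fit a log2 scale. The submitters' processing notes name MAS5 without a version; the sources used here give no normalization between arrays. Of 45101 probe sets 34958 name 1 gene, 932 name several, 9160 are unnamed here and 64 are controls; 34754 Entrez identifiers matched RefSeq GRCm38.p6, used for names and promoters. Trimmed means of the linear values differed by 2.94% between arrays, so values were used as deposited. Where a gene had several probe sets, that of highest mean over the 4 arrays was used, and values under the 50th percentile (6.27) were raised to it. Genes above it on at least 2 arrays were fitted with limma 3.58.1 (R 4.3.3), by lmFit and eBayes with an intensity trend. Prior degrees of freedom were 3.52, and Benjamini-Hochberg was applied over 11818 genes with a threshold of 0.05. The fit was also run on simulated data with independent noise, TNF changes and no genotype effect. That run cannot speak to a TNF response that differs between genotypes.

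The genes and lists were chosen with earlier results of these data known. All listed genes are named; of the other lists, up to 6 genes with the largest range among those at least 2-fold apart in some comparison, and further genes past the limma test and single marker genes after their values were seen; and 3 genes of nearest pattern. Alternatives were floors at the 30th and 70th percentile, no floor with a pseudocount of 16, median centring, quantile normalization, averaged probe sets, eBayes without a trend or robust, and models with 1 term. Some members are not analysed here.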

Additional observations from a re-analysis of the deposited data

Results flagged for a closer look

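Both flagged genes changed direction between genotypes or treatments by amounts far under 2-fold, with 1 array a group, and the differences were not tested. Sp7 differed between TNF and untreated cells by -0.0069 log2 in FAN -/- cells and by 0.13 in FAN +/+ cells. Alpl differed between FAN -/- and FAN +/+ cells by 0.047 log2 with TNF and by -0.23 untreated.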

How the results depend on the processing

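Differences of single genes rest on 1 array each. The labels carry no replicate numbers that would pair arrays; the additive fit compares treatments within genotype and genotypes within treatment, and the fits with 1 term show the counts without this. With the floor at the 70th percentile, 1 member in place of 2 was at least 2-fold apart between untreated genotypes, since Matn2 came to -0.83 log2, and 1 in place of 0 for the difference of TNF responses, Comp at 1.39, whose FAN -/- values both lay at that floor. Hapln1 became 2-fold lower in untreated FAN -/- cells with the 30th percentile floor or none, as given with its values, but did not pass limma there. For TNF, 321 of all genes passed limma (186 higher, 135 lower), against 925 with arrays centred on their median (405 higher, 520 lower), 186 without a floor (115 higher, 71 lower) and 0 without the genotype term (884 at an unadjusted p under 0.05). The members past it for TNF were 0, against 2 with centred arrays (Comp and Sox9) and 1, Comp, with quantile normalization or averaged probe sets. For genotype 781 genes passed (347 higher, 434 lower), against 1512 with centred arrays (532 higher, 980 lower) and 10 without the TNF term. In the fit without the TNF term 0 of the 2 members passed and 2 had an unadjusted p under 0.05, as had 1665 of all 11818 genes. No alternative turned the direction of a called member, and Comp and Matn2 passed for genotype in all alternatives but that without the TNF term. Causes were not tested.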
